A study of Mus musculus with 2 samples.

Results

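The genes described here encode the plasma membrane and lysosomal carriers of amino acids, small peptides and monocarboxylates, together with their closest relatives, in mouse spleen. The rule that defines them uses only the symbol and takes the genes of the solute carrier families SLC1, SLC3, SLC6, SLC7, SLC15, SLC16, SLC36, SLC38 and SLC43. The rule takes 86 symbols of the gene table used for naming, of which 81 had a probe on the array, out of 20649 named genes with a probe. Called measured are the 66 whose signal stood well above background in either pool, out of 16774 such genes. The 15 that did not were Slc1a1, Slc6a2, Slc6a7, Slc6a11, Slc6a14, Slc6a20b, Slc7a9, Slc7a10, Slc7a12, Slc7a13, Slc7a14, Slc7a15, Slc15a1, Slc15a5 and Slc16a14, and 5 symbols had no probe named here (Slc6a5, Slc6a16, Slc6a19os, Slc36a1os and Slc36a3os). The symbol rule also takes Slc7a6os, the gene on the opposite strand of Slc7a6, which is not a carrier, and Slc43a3, a carrier of purine nucleobases.

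Expression was measured on 2 one-colour Agilent arrays, 1 per group. One was hybridised with pooled RNA of 5 spleens remodelled by silica (SiO2), the other with pooled RNA of 5 spleens treated with phosphate-buffered saline (PBS). All mice were female and were sampled 19 days from the first injection; the labels give no strain, genotype or age. With 1 pool per group the spread between animals is unknown, no difference was tested, and group cannot be told apart from pool or array. Per the labels, a blood RNA kit with separate lysis of red and of white cells was used on the spleens, and globin message was then removed.

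Amino acids are polar and cross membranes only through carriers. SLC7 light chains form exchangers with an SLC3 heavy chain, SLC1 and SLC6 carriers use the sodium gradient for uptake, SLC38 carriers move glutamine and other small neutral amino acids, and SLC16 carriers move lactate and pyruvate with a proton. In the spleen these carriers serve dividing lymphocytes, developing red cells, which need glycine for haem, and macrophages that digest engulfed cells in their lysosomes.

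Values below are the processed signal of the brightest probe of a gene (unscaled intensity) on each array, followed by the difference in log2 signal, SiO2 minus PBS, after each array was divided by its own 75th percentile of signal. That percentile was 469 for SiO2 and 669.5 for PBS, so a gene with equal signals on both arrays has a log2 difference above 0. A difference of at least 2-fold means a log2 difference of at least 1 in size. The signal of a probe also depends on its sequence, so signals are compared between arrays and never between genes. The scanner software's own error estimate for a member's log2 difference ran from 0.204 to 0.584 with a median of 0.205, and 15 of the 66 differences were smaller than their own estimate. The median SD of the difference among repeated spots of a probe was 0.088 (305 probes), with a 95th percentile of 0.30. The first is an estimate of the software and not a spread seen among spots. It was 0.204 for bright members such as Slc1a4, Slc16a7 and Slc6a9 alike. The second covers spots on these arrays. Neither covers animals, pools or labelling.

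Of the 66 measured members, 9 (13.6%) had SiO2 signals at least 2-fold above PBS, against 6.62% of all measured genes, and 1 (1.52%) lay at least 2-fold below, against 3.70%. Over all genes this was 1111 higher and 620 lower, a split that depends on scaling: 910 and 806 under median scaling, 700 and 572 in the authors' deposited table, and 2092 and 301 with B and T cell markers centred at 0. At 4-fold, 3 members were higher, against 0.948% of all genes, and none lower, against 0.483%. The members at least 2-fold higher were Slc15a2, Slc6a20a, Slc6a9, Slc43a1, Slc38a5, Slc16a10, Slc7a5, Slc43a3 and Slc1a5, and the one lower was Slc16a4. Most members lay within 2-fold, 56 of 66. The median log2 difference over the members was 0.18, against 0.030 over all measured genes, and 39 members (59.1%) lay above 0, against 52.3% of all genes. In pooled tissue, fewer cells of a type and less RNA per cell cannot be told apart.

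**Figure D1:**
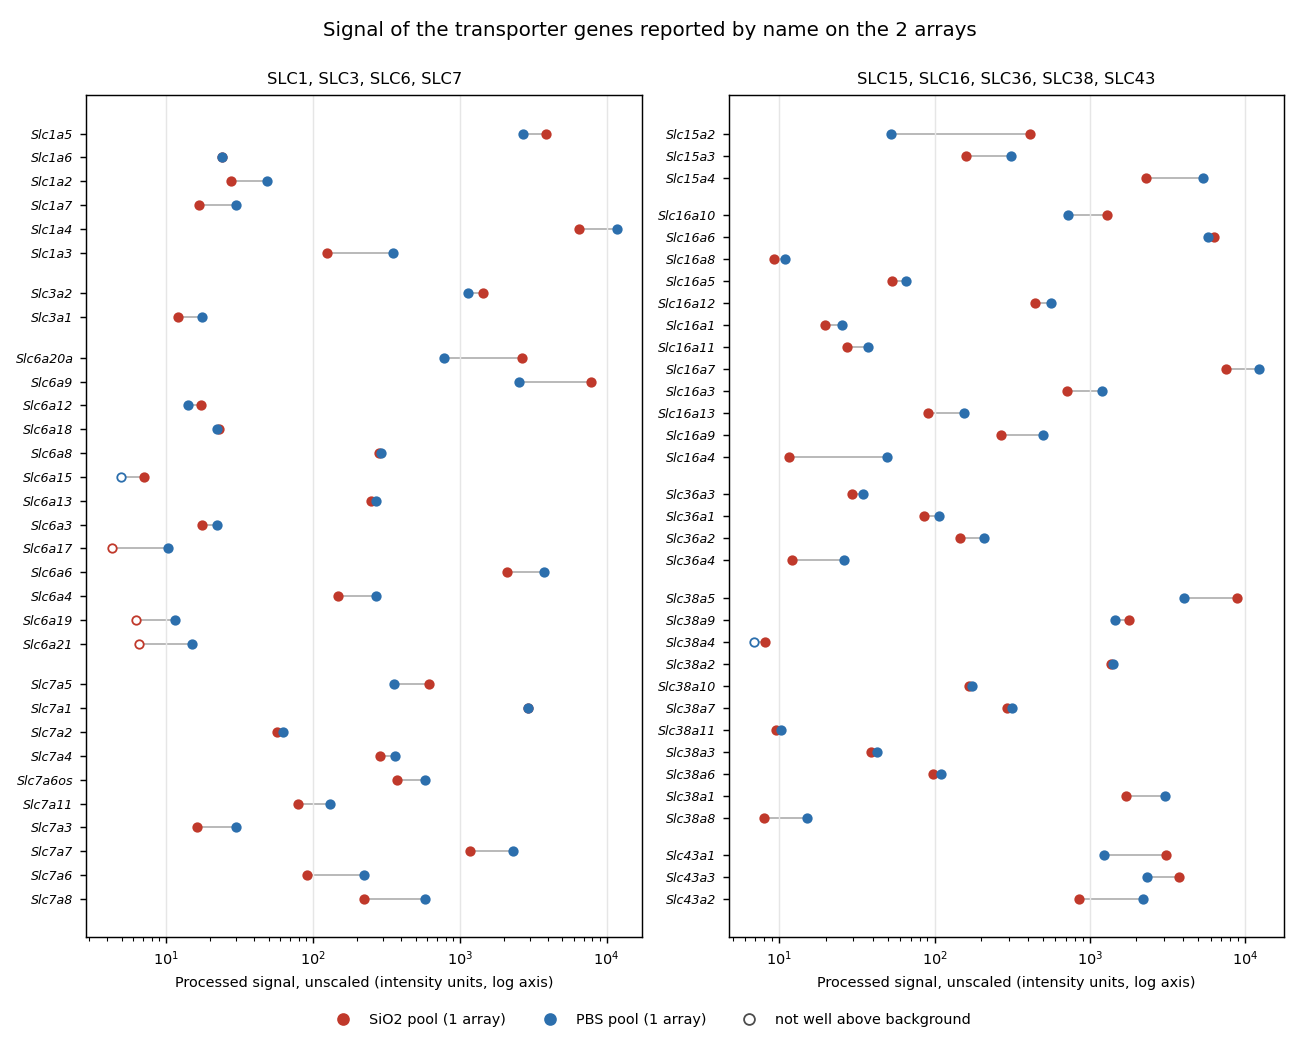
Unscaled processed signal (log axis, intensity units) of the measured transporter genes reported by name on the SiO2 array (red) and the PBS array (blue), grouped by family and sorted within a family by the scaled difference; open points were not well above background. The widest gaps with SiO2 on the right belong to Slc15a2, Slc6a20a and Slc6a9, and the widest with SiO2 on the left to Slc16a4.

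The gene starts of 4 of these members are shown because they carry the largest differences among the members with a single promoter window in the RefSeq table (build GRCm38.p6). Each window runs from 250 bases before to 50 bases after the start, 5′ to 3′ on the gene's strand. Capitals mark a match to AGATAA, a sequence bound by GATA factors of the blood lineages. Other forms of the GATA site were not searched for and are not marked. The windows are chr16:36784913-36785212 (minus strand) for Slc15a2, chr9:123678783-123679082 (minus strand) for Slc6a20a, chr2:84840073-84840372 (plus strand) for Slc43a1 and chrX:8271131-8271430 (plus strand) for Slc38a5.
Slc15a2: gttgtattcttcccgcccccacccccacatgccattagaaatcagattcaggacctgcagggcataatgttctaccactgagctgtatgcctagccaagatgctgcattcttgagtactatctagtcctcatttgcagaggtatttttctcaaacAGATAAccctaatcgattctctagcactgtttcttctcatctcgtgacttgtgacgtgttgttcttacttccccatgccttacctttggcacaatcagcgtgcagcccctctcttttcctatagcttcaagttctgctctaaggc
Slc6a20a: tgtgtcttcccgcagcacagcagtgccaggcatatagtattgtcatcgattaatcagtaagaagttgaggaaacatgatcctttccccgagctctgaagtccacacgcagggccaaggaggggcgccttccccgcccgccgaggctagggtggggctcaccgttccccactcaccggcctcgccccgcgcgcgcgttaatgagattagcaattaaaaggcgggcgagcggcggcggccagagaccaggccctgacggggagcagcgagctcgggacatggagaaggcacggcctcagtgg
Slc43a1: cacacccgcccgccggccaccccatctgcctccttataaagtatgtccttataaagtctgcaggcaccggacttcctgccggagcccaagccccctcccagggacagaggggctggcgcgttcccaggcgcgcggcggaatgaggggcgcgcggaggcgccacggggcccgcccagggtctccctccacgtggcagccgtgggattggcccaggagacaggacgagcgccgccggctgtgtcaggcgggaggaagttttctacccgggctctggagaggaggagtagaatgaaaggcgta
Slc38a5: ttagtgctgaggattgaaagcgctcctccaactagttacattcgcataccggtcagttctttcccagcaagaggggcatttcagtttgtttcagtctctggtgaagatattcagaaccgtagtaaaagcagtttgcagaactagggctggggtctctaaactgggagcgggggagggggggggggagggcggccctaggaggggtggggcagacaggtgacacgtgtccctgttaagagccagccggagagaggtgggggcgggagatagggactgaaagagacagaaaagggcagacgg

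The windows differed in base composition. The Slc15a2 window was 46.3% G and C and held 5 CG pairs, while those of Slc6a20a and Slc43a1 were 62.3% and 67.7% G and C and held 25 and 26 CG pairs. The Slc38a5 window lay between at 56.0% and 10 CG pairs, and the median over all windows was 52.7%. On either strand, AGATAA was present in the Slc15a2 window and in none of the other 7 windows of members past 2-fold on the higher side, against 11.2% of all 32851 windows. CCACACCC, bound by the red cell factor KLF1, and TGATGNAA, bound by the amino acid stress factor ATF4, were in 0 of these 8 windows, against 3.56% and 3.97% of all windows. The match to AGATAA in the Slc15a2 window is the only match to these motifs in the windows shown, so no motifs overlap there. Slc6a9 has 3 windows, Slc16a10 has 1, and Slc7a5, Slc43a3 and Slc1a5 have no entry. A missing match says only that these letters are not in these windows.

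Peptide carriers differed in both directions. Slc15a2, the high-affinity proton-coupled carrier that takes di- and tripeptides into the cell, had a signal of 409 in the SiO2 pool and 52.6 in the PBS pool. This was the largest difference of all members, 11.1-fold higher in the SiO2 pool (log2 3.47), and 2.58 on the log2 scale under normexp, a setting that starts from the median spot signal, models the background and adds an offset of 50. The carriers of peptides and histidine in endosomes and lysosomes of immune cells were lower but within 2-fold. Slc15a4, which serves Toll-like receptor signalling in dendritic cells and B cells, had 2313 in the SiO2 pool and 5341 in the PBS pool (log2 -0.70), and Slc15a3 had 159.96 in the SiO2 pool and 311 in the PBS pool (log2 -0.45). The log2 difference of Slc15a2 thus exceeded that of Slc15a4 by 4.17, a gap that does not depend on how the arrays are scaled to each other and was 3.29 under normexp. The intestinal peptide carrier Slc15a1 and Slc15a5 were not well above background on either array.

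Among SLC6 carriers, those of glycine and of proline differed most. Slc6a20a, the sodium-coupled carrier of proline and other imino acids, had 2649 in the SiO2 pool and 775 in the PBS pool, 4.87-fold higher (log2 2.28). Its paralog and neighbour Slc6a20b was not well above background on either array. Slc6a9, the glycine carrier that supplies red cell precursors for haem synthesis, had 7813 in the SiO2 pool and 2532 in the PBS pool, 4.40-fold higher (log2 2.14). Its other probe, with 5975 in the SiO2 pool and 1836 in the PBS pool, gave 2.21, so the probes differed by 0.076.

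The 12 other measured SLC6 members lay within 2-fold. The taurine carrier Slc6a6, which helps cells hold their volume, had 2088 in the SiO2 pool and 3759 in the PBS pool (log2 -0.34). The serotonin carrier Slc6a4, known from platelets and mast cells, had 148 in the SiO2 pool and 268 in the PBS pool (-0.34), and the creatine carrier Slc6a8 had 284 and 293 (0.47). Slc6a12 and Slc6a13, which carry betaine and the inhibitory transmitter GABA, lay at 0.79 and 0.39. Of these, Slc6a12 was close to background, with 17.2 in the SiO2 pool and 14.2 in the PBS pool. The dopamine carrier Slc6a3 lay at 0.19 and Slc6a18, a kidney carrier of neutral amino acids, at 0.54, both dim on both arrays. The noradrenaline carrier Slc6a2 and the GABA carrier Slc6a11 were not well above background.

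SLC43 carriers differed in opposite directions. Slc43a1, which moves leucine and other large neutral amino acids without sodium and is abundant in developing red cells, had 3085 in the SiO2 pool and 1242 in the PBS pool, 3.54-fold higher (log2 1.83). Its close relative Slc43a2, which moves the same kind of amino acids, had 854 in the SiO2 pool and 2200.04 in the PBS pool (log2 -0.85). The log2 differences of this pair were 2.68 apart, and between 2.45 and 2.68 apart over all 11 ways of processing. The nucleobase carrier Slc43a3, separated from Slc43a1 by 1 protein-coding gene on chromosome 2, had 3760.4 in the SiO2 pool and 2347 in the PBS pool, 2.29-fold higher (log2 1.19).

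The exchangers built on an SLC3 heavy chain also split. Slc3a2, the heavy chain CD98 that brings most light chains to the surface, had 1441 in the SiO2 pool and 1143 in the PBS pool, 1.80-fold higher (log2 0.85). Slc7a5, its light chain for leucine and other large neutral amino acids in growing cells, had 614 in the SiO2 pool and 359 in the PBS pool, 2.44-fold higher (log2 1.29). The other probe of Slc7a5 gave 0.43, with 262 in the SiO2 pool and 277 in the PBS pool, so the call at 2-fold rests on 1 of 2 probes, and the authors' deposited table, which holds only the second, gave 0.39. The remaining measured light chains were lower and within 2-fold. Slc7a8, a second light chain for neutral amino acids, had 224 in the SiO2 pool and 579 in the PBS pool (log2 -0.86). Its value is the mean of 9 spots per array, with a spot SD of log2 signal of 0.056 on the SiO2 array and 0.038 on the PBS array. Slc7a5 and Slc7a8 were 2.14 apart, and 1.28 apart in the authors' deposited table.

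The light chains that exchange cationic for neutral amino acids were on the same side as Slc7a8. Slc7a6 had 90.6 in the SiO2 pool and 223 in the PBS pool (log2 -0.79), its opposite-strand neighbour Slc7a6os lay at -0.13, and Slc7a7, used by macrophages to export arginine, had 1166 and 2299 (-0.47). Slc7a11, the cystine carrier that feeds glutathione synthesis, had 78.9 in the SiO2 pool and 131 in the PBS pool (-0.22). The kidney heavy chain Slc3a1 was near background at 12.1 in the SiO2 pool and 17.5 in the PBS pool (-0.027), and the other 5 light chains, its partner Slc7a9 among them, were not well above background. In all, 1 of 5 measured light chains lay above 0 and 4 below. Of these, Slc7a11 changed side over the ways of processing, with values from -0.32 to 0.087.

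The measured members of the cationic amino acid transporter branch of SLC7, which works without a heavy chain, lay within 2-fold. Slc7a1, the general arginine and lysine carrier of dividing cells, had 2915 in the SiO2 pool and 2909 in the PBS pool (log2 0.52). Slc7a2, which supplies arginine in activated macrophages, had 56.9 in the SiO2 pool and 63.1 in the PBS pool (0.36). Slc7a4 and Slc7a3 lay at 0.17 and -0.38, the second with signals of 16.2 in the SiO2 pool and 30.03 in the PBS pool.

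**Figure D2:**
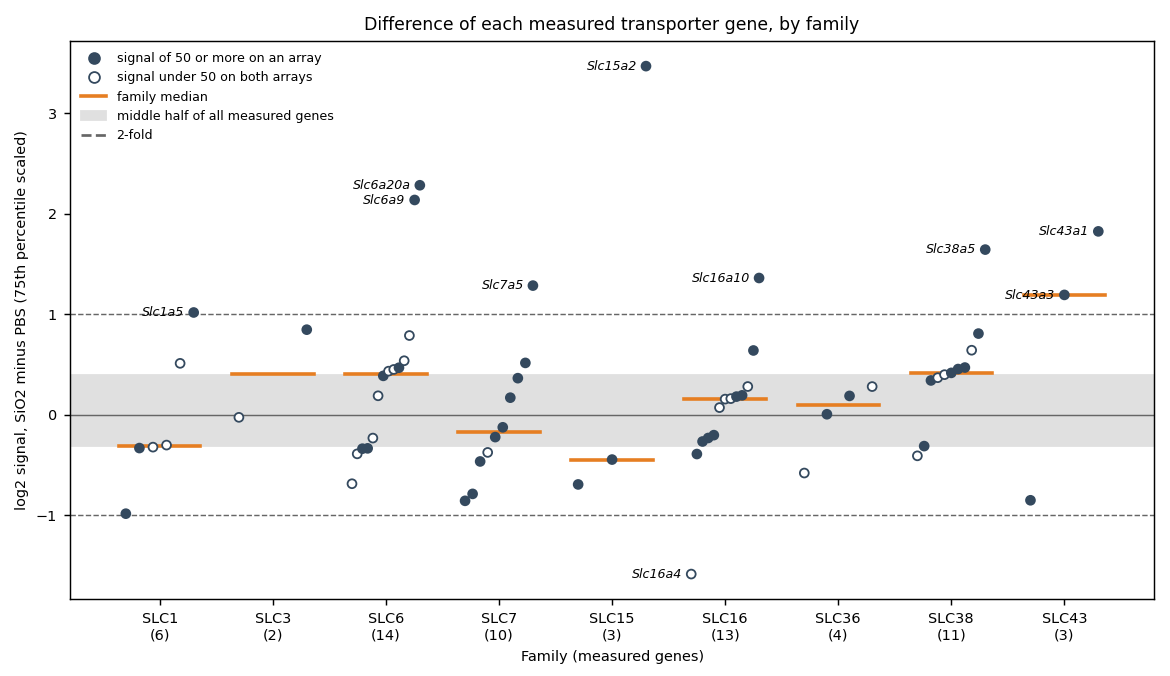
Log2 signal, SiO2 minus PBS, of each measured transporter gene by family, with the number of measured genes in brackets; orange lines are family medians, the grey band spans the quartiles of all measured genes and dashed lines mark 2-fold. The 9 members above the upper line all have a signal of 50 or more on an array (filled points), and Slc16a4, below the lower line, does not.

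Carriers of glutamine and other small neutral amino acids contained 2 members at least 2-fold higher. Slc38a5, a glutamine, serine and glycine carrier that also works in reverse, had 8872 in the SiO2 pool and 4050.02 in the PBS pool, 3.13-fold higher (log2 1.64). Slc1a5, the exchanger of glutamine and other neutral amino acids in dividing cells, had 3836 in the SiO2 pool and 2703 in the PBS pool, 2.02-fold higher (log2 1.02). It is just past 2-fold, and its second probe gave 1.15. Under normexp it lay at 0.92 and in the authors' deposited table at 0.97, both within 2-fold.

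The other SLC38 carriers lay within 2-fold, and 8 of those 10 lay above 0, against 52.3% of all measured genes. Slc38a9, the arginine sensor of the lysosome that signals to the growth kinase complex mTORC1, had 1785 in the SiO2 pool and 1455 in the PBS pool (log2 0.81), with its other probes at 0.82 and 1.01. Slc38a2, which cells raise when amino acids are short, had 1366 in the SiO2 pool and 1408 in the PBS pool (0.47). The lysosomal glutamine carrier Slc38a7 lay at 0.42. Slc38a3, Slc38a6, Slc38a8, Slc38a10 and Slc38a11 lay at 0.37, 0.34, -0.41, 0.45 and 0.40. Slc38a1, a main glutamine carrier of activated T cells and neurons, was on the other side, with 1722 in the SiO2 pool and 3052 in the PBS pool (-0.31), 1.96 apart from Slc38a5. Slc38a1, Slc38a2 and Slc38a4 lie next to each other on chromosome 15, and their log2 differences were -0.31, 0.47 and 0.64, the last with 8.06 in the SiO2 pool and 6.84 in the PBS pool, where it was not well above background.

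The remaining SLC1 members did not reach 2-fold. Slc1a4, which carries serine, alanine and cysteine, had 6532 in the SiO2 pool and 11735 in the PBS pool (log2 -0.33), so that it and Slc1a5 were 1.35 apart. Slc1a3, the glutamate carrier also known as GLAST, had 125 in the SiO2 pool and 352 in the PBS pool, 1.98-fold lower (-0.99), just short of 2-fold. It was at least 2-fold lower under median scaling, quantile normalization and the percentile over 1 value per probe. The glutamate carriers Slc1a2, known from astrocytes, Slc1a6 and Slc1a7 were dim, at log2 differences of -0.30, 0.51 and -0.32, and Slc1a1 was not well above background.

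Monocarboxylate carriers proper differed little. Slc16a7, a high-affinity carrier of lactate and pyruvate, had 7511 in the SiO2 pool and 12344 in the PBS pool (log2 -0.20). Slc16a3, the lactate exporter of glycolytic cells, had 715 in the SiO2 pool and 1198 in the PBS pool (-0.23), and its other probe gave -0.15. The probe of Slc16a1, the most widely used lactate carrier, was dim on both arrays, with 19.7 in the SiO2 pool and 25.3 in the PBS pool (0.15). Slc16a8, the lactate carrier of the retinal pigment epithelium, had 9.23 in the SiO2 pool and 10.8 in the PBS pool.

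Relatives of the lactate carriers with other substrates held the only member at least 2-fold lower. Slc16a4, whose substrate is not settled, had 11.5 in the SiO2 pool and 49.5 in the PBS pool, 3.01-fold lower (log2 -1.59). Both signals are low, and under normexp the log2 difference was -0.17. Slc16a10, which lets the aromatic amino acids tryptophan, tyrosine and phenylalanine cross by facilitated diffusion, had 1296 in the SiO2 pool and 719.7 in the PBS pool, 2.57-fold higher (log2 1.36). Its other probe, to another transcript record, had 194 in the SiO2 pool and 83.0 in the PBS pool and gave 1.74. Slc16a6, a carrier of ketone bodies and taurine, had 6293 in the SiO2 pool and 5765 in the PBS pool (0.64), and its second, dim probe gave 0.088. The carnitine carrier Slc16a9 lay at -0.39 and the creatine carrier Slc16a12 at 0.18. Slc16a5, Slc16a11 and Slc16a13 lay at 0.19, 0.070 and -0.27.

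Proton-coupled SLC36 carriers, which release small amino acids from lysosomes or take them up from the gut, were all within 2-fold. Slc36a1, the lysosomal member that serves mTORC1 signalling, had 85.1 in the SiO2 pool and 107 in the PBS pool (log2 0.19), and Slc36a2 had 146 and 208 (0.0040). Slc36a3 lay at 0.28 by its brighter probe and -0.053 by the other, and was the only member whose detected probes had both signs. Of the 13 members with several detected probes, the other 12 had probes of 1 sign. Over all 13 the median gap between probes was 0.31 and the widest, 0.85, was in Slc7a5. Slc36a4 had 12.1 in the SiO2 pool and 25.9 in the PBS pool (-0.58).

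The 9 members at least 2-fold higher all had a signal of 50 or more on at least 1 array. Of 42 such members, 9 (21.4%) lay past 2-fold on the higher side, against 6.79% of the 12659 measured genes with such a signal, and none on the lower, against 3.97%. Of the 24 members with a signal under 50 on both arrays none lay past 2-fold on the higher side, against 6.10% of 4115 genes, and 1 on the lower, against 2.84%. That one is Slc16a4, at 49.5 in the PBS pool just under the limit. Only 5 members were well above background on 1 array alone, Slc6a15 and Slc38a4 in the SiO2 pool and Slc6a17, Slc6a19 and Slc6a21 in the PBS pool, and all lay within 2-fold. Those of Slc6a15, Slc38a4 and Slc6a17 are bounds, and with no lower limit on signal Slc6a15 passed 2-fold.

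Slc3a2 and other partner proteins of these carriers were looked at as a list of 9, of which 8 were measured. Of these, 1 was past 2-fold on either side, and the median log2 difference was -0.022. Beside the counts in this list and those below, 6.62% of all measured genes were at least 2-fold higher and 3.70% at least 2-fold lower. Bsg (basigin), the chaperone of the lactate carriers and also a blood group protein of red cells, had 552 in the SiO2 pool and 330.4 in the PBS pool (log2 1.25). Its relative Emb, which chaperones Slc16a7, lay at -0.017. Cltrn (collectrin), the partner of kidney SLC6 carriers, had 14.4 in the SiO2 pool and 53.0 in the PBS pool (-1.37).

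A list of mitochondrial, vesicular and lysosomal carriers outside the symbol rule, most of amino acids but some of nucleotides, nucleosides or acetyl-CoA, had a median of 0.032, and of 20 measured 2 were past 2-fold on the higher side and 1 on the lower. Slc25a38, which brings glycine into mitochondria for haem synthesis, had 7444 in the SiO2 pool and 4102 in the PBS pool (log2 1.37). Slc25a39, a mitochondrial glutathione carrier, had 42.3 in the SiO2 pool and 26.8 in the PBS pool (1.17). The mitochondrial glutamate carrier Slc25a22 had 774 in the SiO2 pool and 2621 in the PBS pool (-1.25).

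A list for the response to amino acid shortage, with Atf4, Eif2ak4 and targets of ATF4, had a median of -0.032. Of 24 measured 2 were past 2-fold, both higher, against 6.62% of all measured genes. Chac1, an enzyme that breaks down glutathione, had 221 in the SiO2 pool and 71.3 in the PBS pool (log2 2.15), and the pseudokinase Trib3 had 486 and 171 (2.02). Asns, the asparagine synthetase, lay at 0.96, and Atf4 itself, which is controlled largely at translation, at 0.27. Genes of mTORC1 and lysosomal amino acid sensing had a median of 0.099. Of 28 measured 2 were past 2-fold, both higher, again against 6.62% of all measured genes. They were Fnip2, a partner of the Rag GTPase regulator folliculin, at 1.13 and Nprl3, of the GATOR complex that restrains mTORC1, at 1.02. Aminoacyl-tRNA synthetases, which load amino acids onto tRNA, had a median of 0.27, and of 21 measured 1 was past 2-fold on either side. These were Hars, for histidine, at 1.19, and Wars, the interferon-induced enzyme for tryptophan, at -1.27.

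A list of glutathione enzymes and antioxidant response genes, among them Nqo1, Hmox1 and Txnrd1, had 5 of 14 measured past 2-fold, all higher. Its median was 0.29, but -0.21 over the 9 of its genes in the authors' deposited table. The 5 were Chac1, its relative Chac2 (log2 1.74), both subunits of glutamate-cysteine ligase, the first enzyme of the pathway, Gclm (1.37) and Gclc (1.18), and the quinone reductase Nqo1 (1.30). Of the 14, 9 lay above 0. Hmox1 (-0.79), Ggt5 (-0.74) and Txnrd1 (-0.18) were among those below. Glycolysis and lactate genes had 1 of 21 at least 2-fold higher, the muscle-type phosphofructokinase Pfkm at 1.48, and none lower, with a median of 0.0048. Lactate dehydrogenase Ldha had 25143 in the SiO2 pool and 39553 in the PBS pool (-0.14). Arginine and tryptophan enzymes had 1 of 13 higher, the polyamine regulator Azin1 at 1.16, and none lower, with a median of 0.028. Peptidases and peptide sensors had none of 17 higher and 2 lower, with a median of -0.36. They were the bacterial peptide sensors Nod2 (-1.51) and Nod1 (-1.35), whose ligands are carried by SLC15 members.

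**Figure D3:**
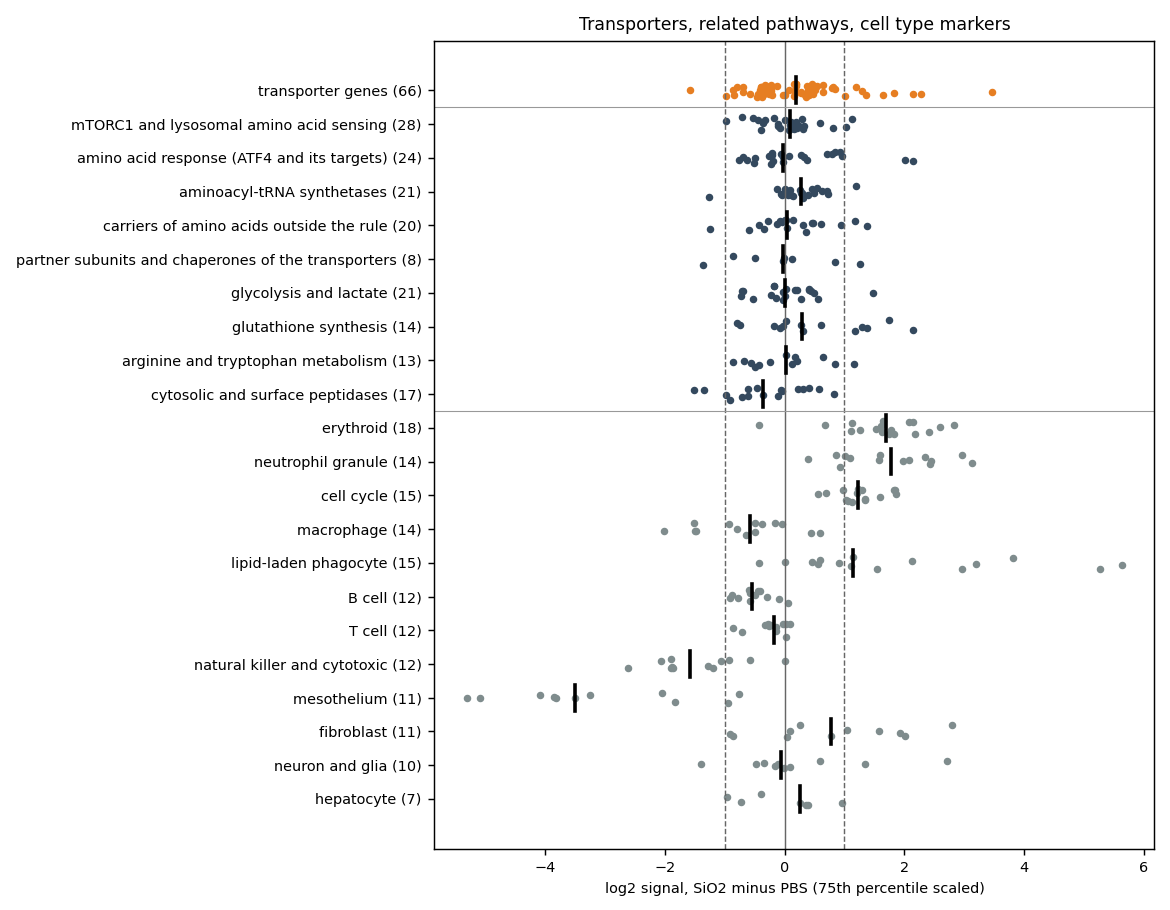
Log2 signal, SiO2 minus PBS, of every measured gene of the transporters (top), of 9 lists of related genes (middle) and of 12 lists of cell type markers (bottom), with the number measured in brackets; black bars are medians and dashed lines mark 2-fold. The medians of the related lists lie between -0.36 and 0.29, while those of the marker lists run from -3.50 for mesothelium, a bound, to 1.78 for neutrophil granule genes.

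Markers of cell types differed between the pools beside these carriers. Erythroid markers had 16 of 18 past 2-fold, all higher, a median log2 difference of 1.69 and a summed scaled signal of 365 times the 75th percentile in the SiO2 pool and 159 times in the PBS pool. Among them were Epb42, a red cell membrane protein, at 2.60, and Alas2, the haem synthesis enzyme that uses glycine, at 1.77. The lowest of the list was Hemgn at -0.42, with 18043 in the SiO2 pool and 34530 in the PBS pool. Also higher were neutrophil granule genes (11 of 14 higher, median 1.78, sums of 203 in the SiO2 pool and 88.1 in the PBS pool) and cell cycle genes (12 of 15 higher, median 1.23, sums of 191 and 78.1). Markers of lipid-laden phagocytes had 9 of 15 higher, with a median of 1.14 and sums of 89.9 in the SiO2 pool and 60.6 in the PBS pool.

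General macrophage markers had 4 of 14 at least 2-fold lower and none higher (median -0.58, sums of 53.9 in the SiO2 pool and 93.8 in the PBS pool), and natural killer and cytotoxic markers had 9 of 12 lower (median -1.57, sums of 7.91 and 25.5). B and T cell markers, the defining cells of the labelled tissue, were all measured and within 2-fold, with medians of -0.54 and -0.18. The B cell sums were 78.7 in the SiO2 pool and 109.8 in the PBS pool, and the T cell sums 19.985 and 24.885. Mesothelial markers had 9 of 11 lower (median -3.50, sums of 0.999 in the SiO2 pool and 6.34 in the PBS pool), and fibroblast markers 5 of 11 higher (median 0.78, sums of 98.8 and 50.9). The mesothelial values of Upk1b, Krt19, Krt8, Bnc1 and Krt7 are bounds, and the median is the value of Bnc1. Over the ways of processing the mesothelial median ran from -4.10 to -1.085. Neuronal and glial markers had 2 of 10 higher and 1 lower (median -0.060, sums of 7.18 in the SiO2 pool and 6.92 in the PBS pool), and hepatocyte markers 0 of 7 in either direction (median 0.26, sums of 10.9 and 20.6). The hepatocyte sums are mostly the signal of Trf, with 4753 in the SiO2 pool and 13209 in the PBS pool. The hepatocyte median was -0.49 over the 3 of its genes in the authors' deposited table. No marker of the erythroid, neutrophil granule, cell cycle, B cell or T cell lists was unmeasured. The part of these cell types in the differences of the carriers was not tested.

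The sizes of the differences moved with the processing, most for Slc16a4, Slc7a5 and Slc15a2. Of the 9 members at least 2-fold higher, 8 remained so under median scaling, quantile normalization, cyclic loess, normexp and the percentile over 1 value per probe, with Slc1a5 under 2-fold in each. When all probes of a gene were averaged Slc7a5 was under 2-fold, and all 9 remained when the median of B and T cell markers was set to 0, which adds 0.31 to every log2 difference and brings Slc3a2, Slc38a9 and Slc6a12 past 2-fold. Over the ways of processing that hold a member, 35 members stayed above 0, 13 below and 18 changed side, none of which differed by more than 0.69 on the log2 scale as reported. The 18 were Slc1a2, Slc1a7, Slc3a1, Slc6a17, Slc6a19, Slc6a21, Slc7a3, Slc7a6os, Slc7a11, Slc16a1, Slc16a3, Slc16a7, Slc16a11, Slc16a13, Slc36a2, Slc36a3, Slc36a4 and Slc38a8. Of these, 9 turned under normexp, where the added offset pulls dim genes above 0.

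**Figure D4:**
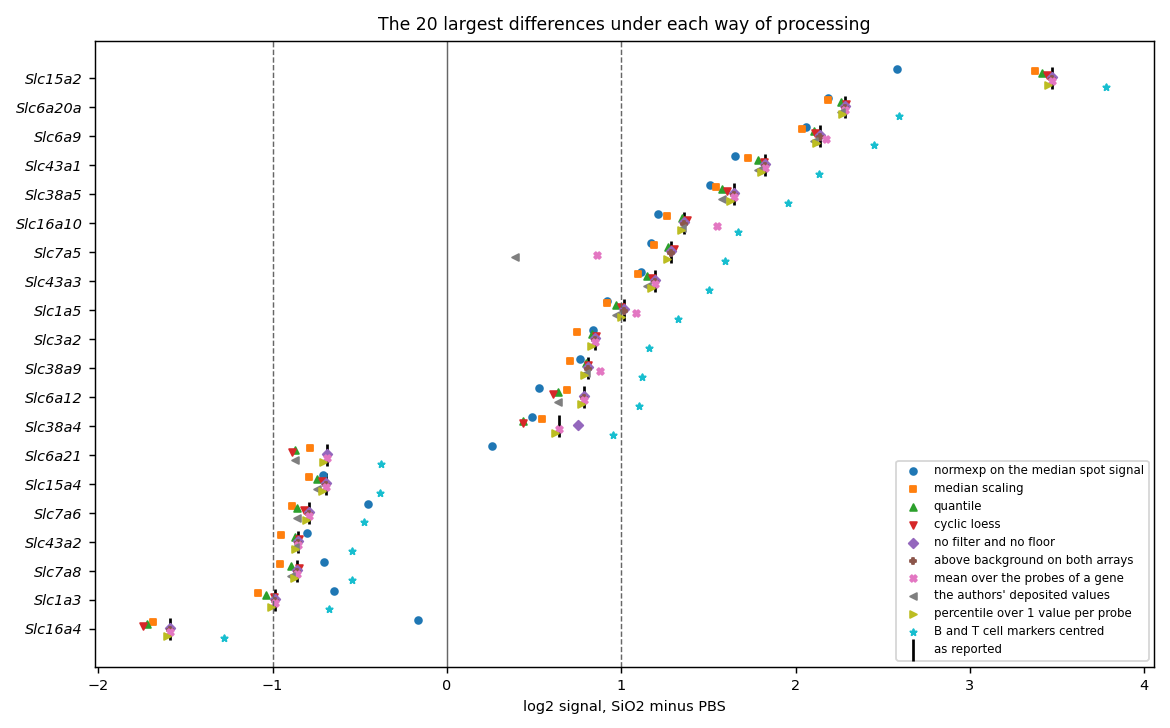
Log2 signal, SiO2 minus PBS, of the 20 members with the largest differences, as reported (black bars) and under 10 other ways of processing (coloured symbols); dashed lines mark 2-fold. Slc15a2, Slc6a20a and Slc6a9 stay above a log2 difference of 2 in each setting that holds them, whereas Slc16a4 moves to -0.17 under normexp.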

How the data were processed

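Spleen RNA of 2 groups was hybridised to 1 one-colour (Cy3) Agilent array each. The intensity values used are linear, deposited per spot and background-subtracted by Agilent Feature Extraction 11.0.1.1, per the file headers; the submitters' processing notes name version 9.1. An authors' table of log2 values (26049 probes, median 5.68 for either pool) tracked the scanner signals with slopes of 1.01 (SiO2) and 0.995 (PBS). Its SiO2 minus PBS differences lay within 0.02 of those from quantile normalization for 99.9% of 18737 probes; the method itself is not named in the labels.

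Control spots and outlier flags (148 spots for SiO2, 145 for PBS, of 43020) were left out; none was saturated, and 74.9% (SiO2) and 75.5% (PBS) were well above background. Repeated spots were averaged, giving 39398 probes, of which 27217 matched 1 symbol of the RefSeq table (assembly GRCm38.p6, for names) by unversioned accession; unmatched probes were not used. The 75th percentile was taken over the spots kept. A gene is its brightest probe among those above background in either pool; a dim value on the other array was raised to the lowest value above background there (a signal of 6.14 for SiO2, 7.37 for PBS), which makes the difference of 3 members a bound. The number of arrays limits precision. Some members are counted but not reported by name here.

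The members and lists were chosen with earlier results of these data known. Named were all members at least 2-fold different, SLC3 genes, measured SLC7 light chains and the 3 brightest of each other family; further members and the pairs compared were named for their roles after their values were seen. limma 3.58.1 in R 4.3.3 gave normexp, quantile and cyclic loess values, and Python 3.11.15 the rest. The probe choice and counting steps were tested on the PBS signals with known folds put in. The scaling percentile was preset in that simulation and calls above background were copied from the PBS array. It therefore did not test the scaling or the background filter. With no replicates, no test was run.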

Additional observations from a re-analysis of the deposited data

How the results depend on the processing

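Values were recomputed under 7 alternatives listed at the outset and 3 chosen after seeing the data. The 3 were normexp on the median spot signal, the percentile over 1 value per probe, and B and T cell markers centred at 0. The planned normexp on the mean signal could not be run, since the scanner output held a median and no mean spot signal. The count of members at least 2-fold higher (9) ran from 6 to 12. As reported, the 9 were 13.6% of members, against 6.62% of all genes. The 6 were among the 40 members in the authors' deposited values (15%, against 5.77% of all genes there). The 12 came with B and T cell markers centred (18.2%, against 12.5% of all genes). The count at least 2-fold lower (1) was 0 under normexp and in the authors' deposited values and 2 under median scaling, quantile normalization and the percentile over 1 value per probe, through Slc1a3; the deposited values hold neither Slc16a4 nor Slc1a3, so that 0 says nothing about either call. The median of 0.18 became 0.31 under normexp, 0.084 under median scaling, 0.094 under quantile normalization, 0.093 under cyclic loess, 0.075 in the authors' deposited values and 0.49 with B and T cell markers centred, while the median of all genes was then 0.18, -0.069, -0.044, -0.024, -0.039 and 0.34. Under normexp, the all-gene counts past 2-fold were 655 higher and 259 lower, against 1111 and 620 as reported; with B and T cell markers centred the numbers were 2092 and 301. No member at least 2-fold different changed direction under the alternatives that hold it (9 for Slc15a2 and Slc16a4, 10 for the others). Of the 9 lists of related genes, the medians of the synthetases (0.17 to 0.58) and the peptidases (-0.46 to -0.054) kept their side of 0, and the other 7 did not. The mTORC1 list went no lower than -1.3e-05. The glutathione list was lowest, at -0.21, in the authors' deposited values, which hold 9 of its 14 genes. It lay at 0.21 under quantile normalization. Members with a signal near background are the least certain, and 9 of them changed sign under normexp. No paired analysis was possible because each group holds 1 sample.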
